A study of Mus musculus with 49 samples.

Results

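The 10 genes described here mark dendritic cells and Langerhans cells: Flt3, Clec9a, Xcr1, Cd209a, Cd207, Ccr7, Batf3, Zbtb46, Irf8 and Epcam. They were listed by name and looked up by Entrez gene ID among the 24475 genes counted in skin and in colon, where each of the 10 was present. A filter for low counts kept 15345 genes in skin, with all 10 members among them, and 15731 genes in colon, with 9 members. Cd207 did not pass in colon, so its colon levels are given without a test there.

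Messenger RNA was sequenced from skin and colon of DITRA-like mice, which model a human disorder in which the natural antagonist of the interleukin-36 receptor is missing. Every group, controls included, carried this background, on a strain given as 75% C57BL/6NTac 25% 129S6/SvEvTac. Imiquimod (IMQ), which activates Toll-like receptors, was used to inflame the skin. The colon was injured with dextran sulfate sodium (DSS), a polymer toxic to the gut lining. The question was how blocking the interleukin-36 receptor, or the p40 subunit shared by interleukin-12 and interleukin-23, changes the inflamed tissue. In skin, 7 libraries came from IMQ with an anti-human IL-36R antibody (anti-IL-36R below), 7 from IMQ with an anti-mouse IL-12p40 antibody (anti-IL-12p40 below), 6 from IMQ with PBS and 3 from water with PBS. In colon, 8 libraries came from DSS with anti-IL-36R, 7 from DSS with anti-IL-12p40, 6 from DSS with PBS and 5 from water with PBS. Alleles, sex, age, doses and times are not given in the sources used here, nor is it stated that each library is a separate animal, so p-values measure the spread between these libraries.

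Conventional dendritic cells take up antigen in tissues and carry it to lymph nodes to activate T cells. They need the receptor FLT3 and the transcription factor ZBTB46 marks them, and they fall into a cross-presenting branch, cDC1, that depends on BATF3 and IRF8 and carries CLEC9A and XCR1, and a cDC2 branch that includes cells with CD209a. Langerhans cells are the resident antigen-presenting cells of the epidermis, marked by langerin (the product of Cd207) and by the adhesion molecule EpCAM, which epithelial cells carry as well. CCR7 is the receptor that guides maturing dendritic cells, and naive T and B cells, towards lymph nodes.

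The skin libraries held between 14723200 and 19678074 expected counts each, and the colon libraries between 15081670 and 18663357. The labelled tissues fitted their epithelial markers: the summed level of 8 skin epithelium genes was 24400 to 45900 CPM (counts scaled to a common library size) in skin libraries and 978 to 3310 CPM in colon libraries, and that of 9 colon epithelium genes was 372 to 682 CPM in skin and 3810 to 57100 CPM in colon. Some libraries stood apart. In the DSS with PBS group, replicate 2 had the lowest T cell, B cell and major histocompatibility complex (MHC) class II sums of its group, and replicates 5 and 6 had the lowest colon epithelium sums, 7200 and 3810 CPM. Members that passed for DSS with PBS against water, and counts of higher genes in the gene lists, are given with and without these 3 libraries. Marker counts of other cells are given with them only. Differences between tissues are given without them only where a call was lost. Water skin replicate 3 held the highest level of its group for 9 members. Members that passed against water in the skin fit are also given without it, while marker counts of other cells are not. CPM here were scaled within each tissue, so tests between skin and colon come from a joint fit of all 49 libraries. In bulk tissue, fewer cells of a type and less RNA per cell cannot be told apart.

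Per kilobase of exon, Epcam was the highest of the 10 genes in each of the 8 groups, from 42.8 CPM per kilobase in IMQ with PBS to 588 CPM per kilobase in DSS with anti-IL-36R. In water skin the next were Cd207 at 12.7 ± 4.9 and Cd209a at 12.6 ± 8.15 CPM per kilobase (SD, n = 3), while Clec9a stood at 0.456 ± 0.44 and Zbtb46 was lowest at a mean of 0.283. In IMQ skin with PBS, Cd209a stood at 0.701 ± 0.764 and Clec9a was the lowest of the 10 at 0.00698 ± 0.0108 CPM per kilobase (SD, n = 6). In colon, Irf8 came second in each group, and Cd207 was the lowest of the 10 in each. When the groups of each gene were put in order of mean CPM, the libraries of neighbouring groups overlapped in all but 5 of 70 pairs. The 5 were the step below water skin for Cd209a, the step between IMQ skin with PBS and water colon for Cd207, the steps above and below water colon for Irf8, and the step between DSS colon with PBS and water skin for Epcam. The share of such steps over all tested genes was not computed. Steps between skin and colon set CPM side by side that were scaled separately in each tissue.

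**Figure D1:**
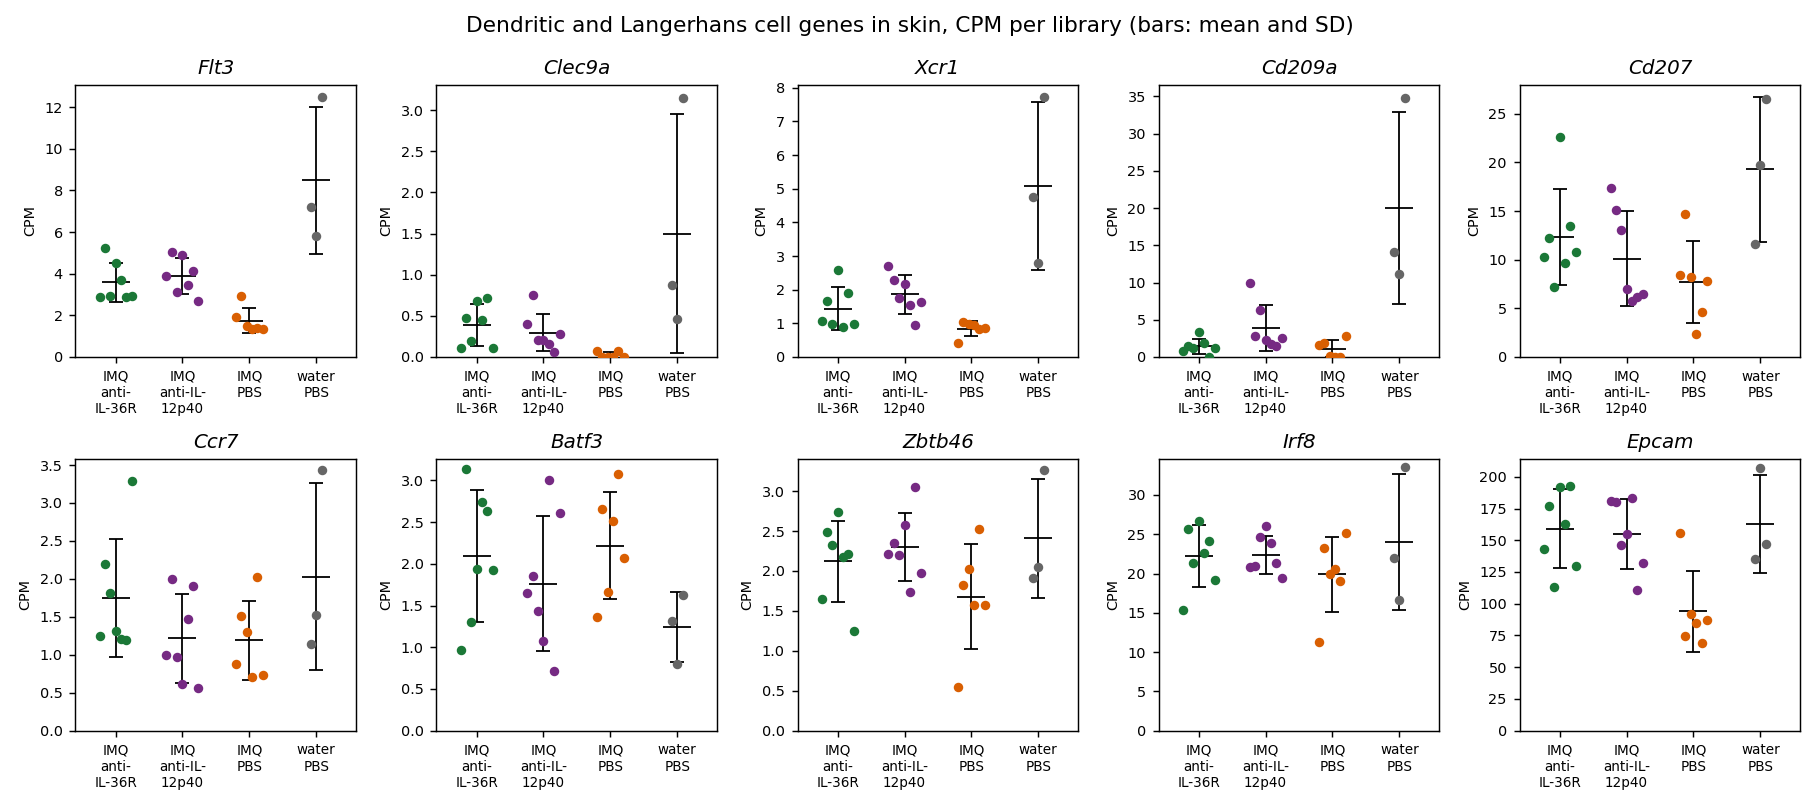
Level of each of the 10 genes in every skin library, in CPM, on the y axis, with the IMQ groups to the left of water with PBS on the x axis. Each point is 1 library, and bars show mean and SD, cut at 0. Flt3, Clec9a, Xcr1 and Cd209a sit lower in IMQ with PBS than in water with PBS in every library.

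IMQ with PBS was compared with water with PBS to ask what IMQ did to these genes in skin. Transcripts of the FLT3 receptor, of both cDC1 surface receptors and of the cDC2 lectin Cd209a were called lower. So were those of langerin and of Epcam, and no member was called higher. Neither langerin nor Epcam passed without water replicate 2 or with IMQ PBS replicates 1 to 3 alone. By the edgeR quasi-likelihood test with Benjamini-Hochberg adjustment, 6 of 10 members were lower and 0 higher, where 17.4% of all tested genes were lower and 15.5% higher. The member median was -1.06 on the log2 scale, beside -0.03 for all tested genes.

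Flt3, the receptor tyrosine kinase that dendritic cell precursors and mature dendritic cells need (Entrez gene ID 14255, chromosome 5, 147330741 to 147400489, GRCm38), stood at 1.34 CPM at the lowest, 1.46 at the median and 2.91 at the highest in the 6 IMQ with PBS libraries, against 7.19, 5.82 and 12.5 CPM in the 3 water libraries. Every IMQ library lay below every water library, and IMQ replicate 2 was the highest of its group. The log2 fold change was -2.29 ± 0.268 (SE, adjusted p = 3.4e-05), and -1.91 without water replicate 3.

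Clec9a, the cDC1 receptor for actin exposed on dead cells (Entrez gene ID 232414, chromosome 6, 129408862 to 129424764), was counted once each in IMQ replicates 1 and 5, at 0.0678 and 0.0701 CPM, and was at 0 in the other 4, where a count of 0 allows up to 0.156 to 0.183 CPM. The water libraries held 0.872, 0.463 and 3.15 CPM. Over the groups this was 2 counts against 79 counts, a ratio of 0.0132 for equal depth with an exact 95% interval of 0.00157 to 0.0493, which covers counting error only. The groups did not overlap, and the fitted log2 fold change of -5.77 ± 0.867 (SE, adjusted p = 0.000183) was -4.61 without water replicate 3. With so few counts its size depends on the fit's prior count. Clec9a passed the count filter only through groups other than IMQ with PBS, where it is higher. It did not pass when IMQ with PBS and water were fitted alone, so its place among the members called lower depends on that filter.

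Xcr1, the receptor through which cDC1 respond to the chemokine XCL1 (Entrez gene ID 23832, chromosome 9, 123852315 to 123862029), ranged from 0.407 through a median of 0.895 to 1.03 CPM under IMQ with PBS, against 4.74, 2.78 and 7.72 CPM in water. The groups did not overlap, and the log2 fold change was -2.58 ± 0.348 (SE, adjusted p = 8.28e-05), and -2.14 without water replicate 3. Xcr1 was the only member with counts that were not whole, in all 49 libraries, so part of its reads was shared with other genes in the authors' estimate.

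Cd209a, a mannose-binding lectin of cDC2 and monocyte-derived cells (Entrez gene ID 170786, chromosome 8, 3743395 to 3748984), ranged from 0 through a median of 0.893 to 2.86 CPM under IMQ with PBS, against 14.1, 11.2 and 34.8 CPM in water. The IMQ libraries fell into a higher set of 3, replicates 1, 2 and 6 at 1.63, 1.94 and 2.86 CPM, and a lower set of 3 at or under 0.156 CPM, all below the lowest water library. Its log2 fold change was -4.18 ± 0.782 (SE, adjusted p = 0.00078), and -3.51 without water replicate 3. Cd209a belongs to a family of neighbouring lectin genes, but its own counts were whole in each library.

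Cd207, the gene of the Langerhans cell lectin langerin (Entrez gene ID 246278, chromosome 6, 83671207 to 83677857), ranged from 2.4 through a median of 8.06 to 14.7 CPM under IMQ with PBS, against 11.6, 19.7 and 26.5 CPM in water. Here the groups overlapped, since IMQ replicate 2 exceeded water replicate 1. The log2 fold change was -1.32 ± 0.429 (SE, adjusted p = 0.0229), but it did not pass without water replicate 2 (-1.27, adjusted p = 0.0532) or replicate 3 (-1.02, adjusted p = 0.147), nor when both groups were fitted alone (-1.32, adjusted p = 0.0564). Epcam (Entrez gene ID 17075, chromosome 17, 87635979 to 87651127) ranged from 68.9 through a median of 86 to 156 CPM under IMQ with PBS, against 135, 207 and 147 CPM in water. IMQ replicate 1 alone lay within the water range, and the log2 fold change was -0.80 ± 0.217 (SE, adjusted p = 0.00875), which did not pass without water replicate 2 (-0.56, adjusted p = 0.0783). Epcam did pass without water replicate 3.

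The receptor of migration and the transcription factors did not pass in skin. Ccr7 (Entrez gene ID 12775, chromosome 11, 99144199 to 99155077) ranged from 0.702 through 1.09 to 2.03 CPM under IMQ with PBS, against 1.14, 1.52 and 3.44 CPM in water (log2 fold change -0.77 ± 0.435, adjusted p = 0.171, and -0.16 without water replicate 3). Batf3, which cDC1 need to develop (Entrez gene ID 381319, chromosome 1, 191098414 to 191108943), ranged from 1.36 through 2.29 to 3.08 CPM, against 1.31, 0.794 and 1.63 CPM in water (0.82 ± 0.407, adjusted p = 0.121). Zbtb46, the transcription factor that sets conventional dendritic cells apart from other myeloid cells and is also made by endothelium (Entrez gene ID 72147, chromosome 2, 181371009 to 181493262), was at -0.52 ± 0.301 (adjusted p = 0.185), and at -0.23 without water replicate 3. Irf8, needed by cDC1 and plasmacytoid cells and also made by macrophages and B cells (Entrez gene ID 15900, chromosome 8, 120736358 to 120756694), was at -0.27 ± 0.205 (adjusted p = 0.306), and at 0.04 without water replicate 3. The libraries of IMQ and water overlapped for each of these 4 genes. IMQ replicate 1 was the lowest library for Zbtb46 (0.543 CPM) and Irf8 (11.3 CPM).

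The sample numbers place IMQ PBS replicates 1 to 3 with the water libraries and replicates 4 to 6 with the anti-IL-36R libraries. The 7 anti-IL-12p40 libraries of skin form a run of numbers of their own, with no library of another group among them. In skin, this antibody and its run of numbers therefore cannot be told apart, whether against PBS, water or anti-IL-36R. With replicates 1 to 3 alone the log2 fold changes over water were -1.99 for Flt3, -5.78 for Clec9a, -2.60 for Xcr1 and -4.02 for Cd209a, and with replicates 4 to 6 alone they were -2.64, -5.74, -2.52 and -4.33 in the same order. All 8 of these values passed. Cd207 passed with replicates 4 to 6 (-1.95, adjusted p = 0.013) and not with replicates 1 to 3 (-0.86, adjusted p = 0.162), and Epcam likewise (-1.02, adjusted p = 0.00472, and -0.58, adjusted p = 0.0958).

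Markers of other cells moved in the same comparison, where 17.4% of all tested genes were lower and 15.5% higher. Their counts below include water replicate 3. Of 8 T cell markers, 7 were lower, with summed levels of 17.6 to 27.1 CPM under IMQ with PBS and 37 to 54.1 CPM in water, and none of the 8 was at 0 in more than 1 IMQ library. Of 7 hair follicle and sebaceous markers, 6 were lower (sums of 3130 to 4440 CPM and 5150 to 7620 CPM), as were 4 of 6 fibroblast markers (4200 to 10400 CPM and 13600 to 23200 CPM). All 5 neutrophil markers were higher, with sums of 2940 to 5560 CPM under IMQ with PBS and 189 to 1160 CPM in water, and 5 of 10 macrophage and monocyte markers were higher. Their part in the falls of Flt3, Clec9a, Xcr1, Cd209a, Cd207 and Epcam was not tested.

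The bases just before the transcription start are shown for the 5 dendritic and Langerhans cell genes that fell, Epcam aside, from RefSeq on GRCm38.p6. In this set 9 of 10 members matched, all but Ccr7. Each run reads 5′ to 3′ on the gene's strand and ends at the base before the start, and capitals mark a match to a motif below on either strand. The windows are chr5:147400490-147400739 on the minus strand for Flt3, chr6:129408612-129408861 on the plus strand for Clec9a, chr9:123862030-123862279 on the minus strand for Xcr1, chr8:3748985-3749234 on the minus strand for Cd209a and chr6:83677858-83678107 on the minus strand for Cd207.
Flt3: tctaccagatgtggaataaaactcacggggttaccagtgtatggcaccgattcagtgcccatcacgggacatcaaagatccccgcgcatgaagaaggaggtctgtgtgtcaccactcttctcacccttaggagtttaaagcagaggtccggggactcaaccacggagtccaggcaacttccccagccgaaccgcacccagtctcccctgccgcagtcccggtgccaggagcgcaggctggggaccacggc
Clec9a: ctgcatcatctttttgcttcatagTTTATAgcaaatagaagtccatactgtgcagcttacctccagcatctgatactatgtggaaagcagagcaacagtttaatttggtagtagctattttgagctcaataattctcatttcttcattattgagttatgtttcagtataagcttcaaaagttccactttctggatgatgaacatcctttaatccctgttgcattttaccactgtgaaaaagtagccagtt
Xcr1: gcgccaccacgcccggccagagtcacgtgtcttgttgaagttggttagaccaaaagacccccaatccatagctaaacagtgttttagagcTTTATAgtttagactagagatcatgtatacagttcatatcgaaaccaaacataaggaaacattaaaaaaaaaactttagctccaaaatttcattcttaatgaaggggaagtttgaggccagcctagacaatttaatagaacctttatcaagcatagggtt
Cd209a: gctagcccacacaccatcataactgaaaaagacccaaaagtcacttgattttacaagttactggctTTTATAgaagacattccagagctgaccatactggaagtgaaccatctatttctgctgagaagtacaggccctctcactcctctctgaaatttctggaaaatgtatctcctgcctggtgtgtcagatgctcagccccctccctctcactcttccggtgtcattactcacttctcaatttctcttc
Cd207: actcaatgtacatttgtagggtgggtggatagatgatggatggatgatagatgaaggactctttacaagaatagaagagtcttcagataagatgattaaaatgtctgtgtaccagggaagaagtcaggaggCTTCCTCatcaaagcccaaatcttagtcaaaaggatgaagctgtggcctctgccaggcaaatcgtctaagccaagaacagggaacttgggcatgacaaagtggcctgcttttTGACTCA

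The motifs searched were the PU.1 core GAGGAAG, the AP-1 site TGANTCA, the interferon-stimulated response element core GAAANNGAA and the TATA box TATAAA, on both strands of 250 bases; no match overlapped another. Over 32851 windows of 27025 genes, 10.6% held the PU.1 core, 6.75% the AP-1 site, 7.13% the response element core and 12.4% the TATA box. Cd207 held a PU.1 core whose first base lay 119 bases before the start and an AP-1 site 7 bases before it. Clec9a, Xcr1 and Cd209a each held the TATA letters on the opposite strand, 226, 160 and 184 bases before the start, and Flt3 held none of the 4. Among the members not printed, Batf3 held the PU.1 core, Zbtb46 the AP-1 site and Irf8 the TATA box 31 bases before its first listed start. The Zbtb46 window, chr2:181424389-181424638 on the minus strand, lies before a start inside the span of the gene.

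The antibodies were then compared with PBS under IMQ, to ask whether the same genes stood higher when either pathway was blocked. Flt3 and Epcam rose with both antibodies, and Xcr1 rose with anti-IL-12p40. Clec9a was also called higher with both and is among the counts that follow. It passed the count filter only through groups other than IMQ with PBS. With anti-IL-36R, 3 of 10 members were higher and 0 lower, where 3.21% of all tested genes were higher, and with anti-IL-12p40, 4 of 10 were higher and 0 lower, where 5.26% were higher. The member medians were 0.62 and 0.59 on the log2 scale, beside 0 and 0.01 for all tested genes. Both comparisons use the same 6 PBS libraries, which were also those compared with water, so their values are set side by side and their likeness is not counted.

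Flt3 ranged from 2.87 through a median of 2.92 to 5.22 CPM with anti-IL-36R, against 1.34 through 1.46 to 2.91 CPM with PBS. The anti-IL-36R libraries lay above 5 of the 6 PBS libraries, and PBS replicate 2 overlapped the 2 lowest. The log2 fold change was 1.04 ± 0.231 (SE, adjusted p = 0.0134). With anti-IL-12p40 Flt3 ranged from 2.69 through 3.91 to 5.05 CPM, with 1 library below PBS replicate 2, and its log2 fold change over PBS was 1.17 ± 0.231 (SE, adjusted p = 0.00477).

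Clec9a was counted in every library of both antibody groups. It ranged from 0.104 through a median of 0.446 to 0.717 CPM with anti-IL-36R, against at most 0.0701 CPM with PBS, so the groups did not overlap. The anti-IL-36R group held 46 counts against 2 with PBS, a depth-adjusted ratio of 19 (exact 95% interval 4.97 to 161), and the test gave an adjusted p of 0.0192. With anti-IL-12p40 it ranged from 0.0598 through 0.205 to 0.75 CPM, 38 counts against 2 with PBS, a ratio of 15 (exact 95% interval 3.89 to 129) with an adjusted p of 0.025. Replicate 6 of anti-IL-12p40, with 1 count, was the library that overlapped PBS. Here too Clec9a passed the count filter only through groups other than IMQ with PBS. It did not pass when either antibody group was fitted alone with PBS, so both calls depend on that filter.

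Xcr1 ranged from 0.956 through a median of 1.74 to 2.71 CPM with anti-IL-12p40, against 0.407 through 0.895 to 1.03 CPM with PBS, and rose by 1.13 ± 0.306 (SE, adjusted p = 0.025). Replicate 6 of anti-IL-12p40 was the library within the PBS range. With anti-IL-36R it ranged from 0.891 through 1.08 to 2.57 CPM, with 3 libraries within the PBS range, and its log2 fold change was 0.76 ± 0.309 (SE, adjusted p = 0.159). The antibodies set against each other did not separate for Xcr1.

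Cd209a ranged from 0.0597 through a median of 1.25 to 3.31 CPM with anti-IL-36R (0.38 ± 0.724, adjusted p = 0.804) and from 1.43 through 2.61 to 9.88 CPM with anti-IL-12p40 (1.82 ± 0.692, adjusted p = 0.101), against 0 through 0.893 to 2.86 CPM with PBS. Anti-IL-12p40 replicates 1 and 3, at 9.88 and 6.24 CPM, were the highest of these 20 libraries. Cd207 ranged from 7.19 through 10.8 to 22.6 CPM with anti-IL-36R (0.68 ± 0.356, adjusted p = 0.278) and from 5.74 through 6.98 to 17.4 CPM with anti-IL-12p40 (0.40 ± 0.356, adjusted p = 0.513). Its libraries overlapped those with PBS in both cases.

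Epcam ranged from 113 through a median of 163 to 193 CPM with anti-IL-36R, against 68.9 through 86 to 156 CPM with PBS. Apart from PBS replicate 1, all anti-IL-36R libraries lay above all PBS libraries. The log2 fold change was 0.75 ± 0.177 (SE, adjusted p = 0.0186), and with anti-IL-12p40, at 111 through 155 to 183 CPM, it was 0.73 ± 0.177 (SE, adjusted p = 0.0144). Ccr7, Batf3, Zbtb46 and Irf8 did not pass with either antibody, with log2 fold changes of 0.56, -0.09, 0.33 and 0.16 with anti-IL-36R and 0.05, -0.33, 0.45 and 0.17 with anti-IL-12p40, in that order.

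These calls rested on all 6 PBS libraries. Against PBS replicates 1 to 3 alone, no member passed with either antibody by edgeR, with Flt3 at 0.75 (adjusted p = 0.168) and Epcam at 0.55 (adjusted p = 0.192) for anti-IL-36R and Flt3 at 0.87 (adjusted p = 0.0927), Xcr1 at 1.16 (adjusted p = 0.121) and Epcam at 0.52 (adjusted p = 0.18) for anti-IL-12p40. Against PBS replicates 4 to 6 alone, Flt3 and Epcam passed with both antibodies, at 1.39 (adjusted p = 0.0389) and 0.98 (adjusted p = 0.0362) for anti-IL-36R and at 1.5 (adjusted p = 0.0163) and 0.95 (adjusted p = 0.0201) for anti-IL-12p40. Clec9a, at 3.81 (adjusted p = 0.168) and 3.44 (adjusted p = 0.178) against those 3 libraries, did not pass, and neither did Xcr1 with anti-IL-12p40 (1.07, adjusted p = 0.169). Flt3 passed with both antibodies whichever single library was left out. Clec9a lost its anti-IL-36R call without PBS replicate 2 or 3 or anti-IL-36R replicate 6 (adjusted p of 0.051, 0.0526 and 0.05), and Epcam without PBS replicate 2 or 5 (0.0549 and 0.0553). For anti-IL-12p40, Clec9a lost its call without PBS replicate 2 or 3 or antibody replicate 1 or 2 (highest adjusted p = 0.069), and Xcr1 without PBS replicate 1 or 5 or antibody replicate 1 or 2 (highest adjusted p = 0.0629).

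**Figure D2:**
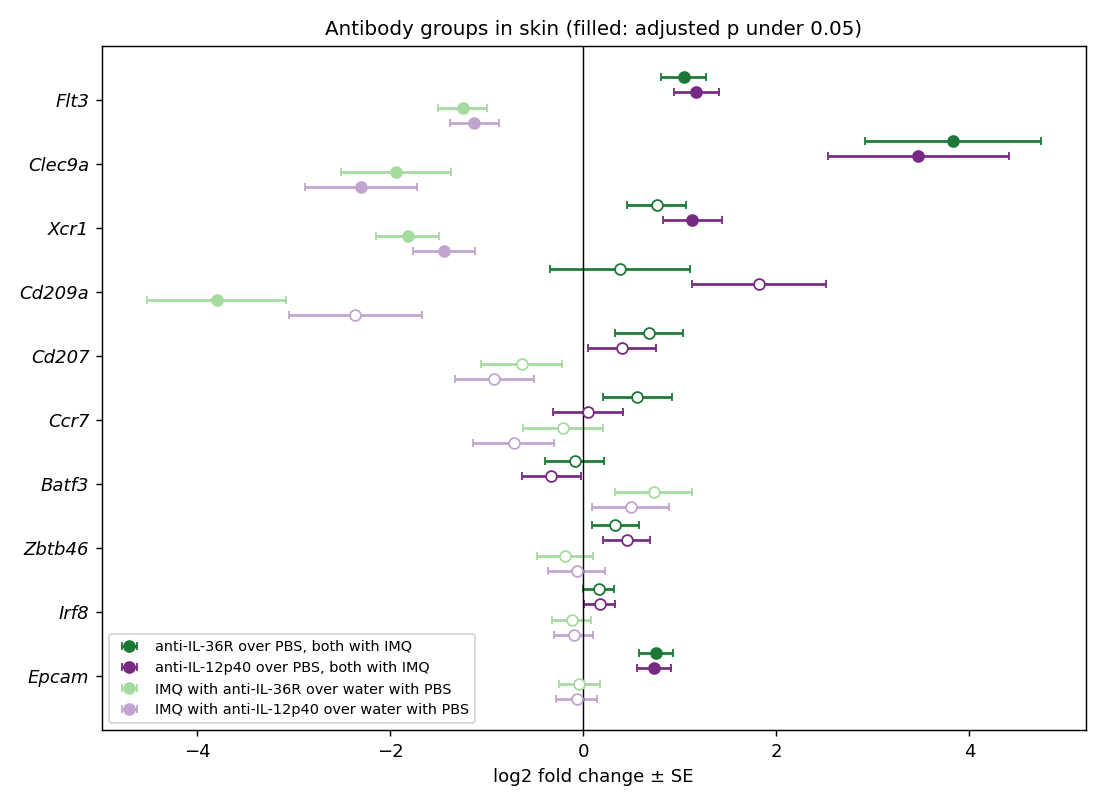
Log2 fold change on the x axis for each of the 10 genes, for anti-IL-36R (green) and anti-IL-12p40 (purple) under IMQ, over IMQ with PBS in dark shades and over water with PBS in light shades; points are fitted values, bars their SE, and filled points passed the test. Over PBS these are Flt3, Clec9a and Epcam with both antibodies and Xcr1 with anti-IL-12p40, and over water Flt3, Clec9a and Xcr1 with both and Cd209a with anti-IL-36R, all lower.

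Set against each other, anti-IL-36R and anti-IL-12p40 differed for 0 of 10 members in skin, where 0.0456% of all tested genes passed in either direction. At an unadjusted p under 0.05, edgeR gave 1 member, Cd209a, beside 806 of all 15345 tested genes. DESeq2 and limma-voom also called 0 members. The log2 fold changes of anti-IL-36R over anti-IL-12p40 ran from -1.44 for Cd209a (adjusted p = 0.869) to 0.51 for Ccr7.

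Compared with water, both antibody groups still stood low for the cDC1 receptors and Flt3. With anti-IL-36R, 4 of 10 members were lower than in water, where 7.12% of all tested genes were lower: Flt3 at -1.25 ± 0.252 (adjusted p = 0.00369), Clec9a at -1.94 ± 0.573 (adjusted p = 0.0297), Xcr1 at -1.82 ± 0.324 (adjusted p = 0.00164) and Cd209a at -3.80 ± 0.723 (adjusted p = 0.00263). With anti-IL-12p40, 3 of 10 were lower, where 2.35% of all were lower: Flt3 at -1.13 ± 0.252 (adjusted p = 0.0167), Clec9a at -2.30 ± 0.582 (adjusted p = 0.0278) and Xcr1 at -1.44 ± 0.322 (adjusted p = 0.0166), while Cd209a was at -2.36 ± 0.689 (adjusted p = 0.0508). The Cd209a libraries did not overlap those of water, and it passed by limma-voom (-2.06, adjusted p = 0.0345), by edgeR without the robust option (adjusted p = 0.0489), with both groups fitted alone (adjusted p = 0.0439) and without antibody replicate 1 (-2.79, adjusted p = 0.0335). Epcam stood at -0.04 and -0.07 against water. Water replicate 3 carried much of this: without it Flt3 was at -0.86 (adjusted p = 0.0509) and Clec9a at -0.78, neither passing, for anti-IL-36R, while Xcr1 (-1.38) and Cd209a (-3.13) passed, and the 3 calls for anti-IL-12p40 were lost, with Flt3 at -0.74, Clec9a at -1.15 and Xcr1 at -1.01. The Clec9a call was also lost without anti-IL-36R replicate 1, 3 or 7 (lowest adjusted p = 0.052) and, for anti-IL-12p40, without water replicate 1 (-2.57) or antibody replicate 5 (-2.19), and that of Xcr1 for anti-IL-12p40 without water replicate 1 (-1.49). With each antibody group fitted alone with water, Clec9a did not pass either (adjusted p = 0.0807 for anti-IL-36R and 0.069 for anti-IL-12p40), nor did it by limma-voom for anti-IL-36R (-1.34, adjusted p = 0.113).

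Beside these rises, hair follicle and sebaceous markers were higher in 4 of 7 cases with each antibody, with sums of 5540 to 7910 CPM with anti-IL-36R and 4490 to 7550 CPM with anti-IL-12p40, against 3130 to 4440 CPM with PBS. Of all tested genes, 3.21% were higher with anti-IL-36R and 5.26% with anti-IL-12p40. T cell markers were higher in 5 of 8 cases with anti-IL-12p40, with sums of 27.8 to 46.9 CPM, and their sums were 21.7 to 35.8 CPM with anti-IL-36R, against 17.6 to 27.1 CPM with PBS. Neutrophil markers were lower in 2 of 5 cases with anti-IL-12p40, where 3.46% of all tested genes were lower. With anti-IL-36R they were lower in 0 of 5, where 0.886% of all were. Their sums were 427 to 2030 CPM and 1350 to 5010 CPM in that order, against 2940 to 5560 CPM with PBS. These marker counts use all 6 PBS libraries, and fewer genes of all passed against replicates 1 to 3 or 4 to 6 alone. The part of these markers in the rises of Flt3, Clec9a, Xcr1 and Epcam was not tested.

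**Figure D3:**
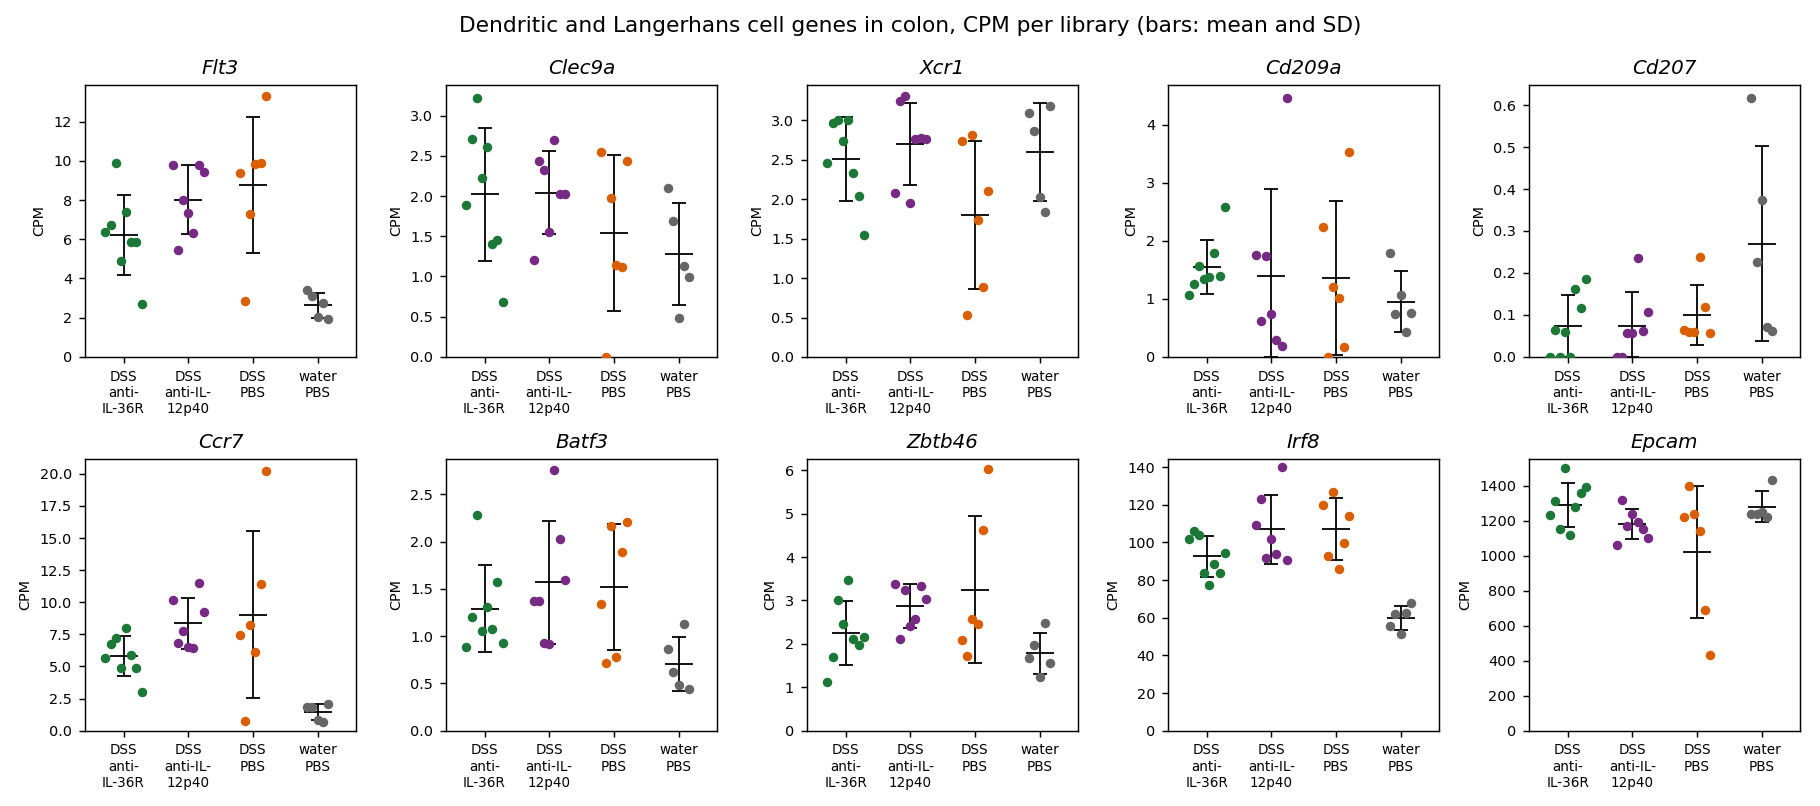
Level of each of the 10 genes in every colon library, in CPM, on the y axis, with the DSS groups to the left of water with PBS on the x axis. Each point is 1 library, and bars show mean and SD, cut at 0. Irf8 is higher in every DSS with PBS library than in every water library, and DSS with PBS replicate 2 is low for Flt3, Clec9a, Xcr1, Cd209a and Ccr7.

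DSS with PBS was compared with water with PBS to ask the same of the colon. Here Flt3, Ccr7 and the transcription factors Irf8, Batf3 and Zbtb46 rose, and the cDC1 and cDC2 surface receptors did not pass in either direction. By edgeR, 5 of 9 tested members were higher and 0 lower, where 17.6% of all tested genes were higher and 14.6% lower. The member median was 0.83 on the log2 scale, beside -0.03 for all tested genes.

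Flt3 ranged from 2.86 through a median of 9.61 to 13.3 CPM with DSS and PBS, against 3.39, 3.1, 2.03, 2.76 and 1.93 CPM in water. DSS replicate 2 lay within the water range and the other 5 above it, with a log2 fold change of 1.73 ± 0.305 (SE, adjusted p = 0.000147).

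Ccr7 spread widely under DSS with PBS, from 0.776 through a median of 7.84 to 20.2 CPM, against 1.85, 1.86, 0.801, 0.707 and 2.06 CPM in water. DSS replicate 2 was again within the water range, and replicates 5 and 6, at 11.4 and 20.2 CPM, were the highest. The log2 fold change was 2.62 ± 0.471 (SE, adjusted p = 0.000175).

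Irf8 ranged from 85.6 through a median of 107 to 127 CPM with DSS and PBS, against 55.7, 61.9, 51.2, 62.5 and 67.9 CPM in water. The groups did not overlap, and the log2 fold change was 0.83 ± 0.122 (SE, adjusted p = 1.6e-05). Batf3 ranged from 0.716 through 1.62 to 2.21 CPM, against 0.864, 0.619, 0.481, 1.13 and 0.437 CPM in water, with overlap, and rose by 1.11 ± 0.36 (SE, adjusted p = 0.021). Zbtb46 ranged from 1.73 through 2.52 to 6.02 CPM, against 1.67, 1.97, 1.23, 2.47 and 1.56 CPM in water, with overlap, and rose by 0.87 ± 0.297 (SE, adjusted p = 0.0271).

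Clec9a was at 0 in DSS replicate 2, which allows up to 0.179 CPM, and between 1.12 and 2.55 CPM in the other 5, against 2.1, 1.69, 0.481, 1.13 and 0.998 CPM in water (0.27 ± 0.519, adjusted p = 0.735). Xcr1 ranged from 0.537 through 1.92 to 2.82 CPM, against 3.09, 2.87, 2.03, 1.84 and 3.18 CPM in water (-0.53 ± 0.298, adjusted p = 0.18). Cd209a ranged from 0 through 1.11 to 3.52 CPM, against 1.79, 0.732, 1.07, 0.424 and 0.749 CPM in water (0.50 ± 0.721, adjusted p = 0.633). The groups overlapped for each of the 3 receptors.

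Epcam ranged from 431 through a median of 1180 to 1400 CPM with DSS and PBS, against 1240, 1240, 1250, 1220 and 1430 CPM in water (-0.33 ± 0.185, adjusted p = 0.183). Replicates 5 and 6, at 691 and 431 CPM, were the lowest of the colon libraries and were also those with the lowest colon epithelium sums. Cd207 held 0 to 10 counts in each of the 26 colon libraries, with 0 in 5 of them, and stood between 0.0568 and 0.239 CPM with DSS and PBS, against 0.617, 0.225, 0.374, 0.0707 and 0.0624 CPM in water.

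With DSS replicates 5 and 6 left out, an alternative added after the data were seen, Flt3 was at 1.49, Ccr7 at 1.96 (adjusted p = 0.0024) and Irf8 at 0.84, and these 3 passed. Batf3 was then at 0.84 (adjusted p = 0.138) and Zbtb46 at 0.33 (adjusted p = 0.402). With replicate 2 left out as well, Flt3 was at 1.76, Ccr7 at 2.33 and Irf8 at 0.91 and passed, while Batf3 was at 1.04 (adjusted p = 0.0922), Zbtb46 at 0.44 and Xcr1 at -0.08. Leaving out single libraries, Zbtb46 did not pass without water replicate 1, 3 or 5 or DSS replicate 5 or 6 (0.61 to 0.85), nor Batf3 without water replicate 3 or 5 or DSS replicate 6 (0.98 to 0.99). With both groups fitted alone, Zbtb46 (adjusted p = 0.101) and Batf3 (adjusted p = 0.0666) did not pass either.

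In the same comparison all 8 T cell markers, 6 of 7 B cell markers, 8 of 10 macrophage and monocyte markers, all 5 neutrophil markers and all 6 fibroblast markers were higher, and no T or B cell marker was at 0 in any DSS with PBS library. Summed T cell levels were 13.5 to 148 CPM with DSS and PBS and 15.8 to 24.3 CPM in water, B cell levels 25.2 to 530 and 15 to 102 CPM, and macrophage and monocyte levels 466 to 1370 and 181 to 344 CPM. Neutrophil sums were 101 to 1510 CPM with DSS and PBS and 5.8 to 8.07 CPM in water, and fibroblast sums 4000 to 13900 and 1710 to 2880 CPM. The naive lymphocyte sum was 31.8 to 130 CPM with DSS and PBS and 8.06 to 16.5 CPM in water. The endothelium sum was 217 to 749 CPM with DSS and PBS and 181 to 223 CPM in water. Their part in the rises of Flt3, Ccr7, Irf8, Batf3 and Zbtb46 was not tested.

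In colon no member passed with either antibody. Against DSS with PBS, 0 of 9 members passed with anti-IL-36R, where 6.51% of all tested genes passed in either direction and 5.38% as lower, and 0 of 9 with anti-IL-12p40, where 0.998% passed. At an unadjusted p under 0.05 edgeR gave 1 member in each case, Zbtb46 and Xcr1, beside 3637 and 1892 of all 15731 tested genes. DESeq2 and limma-voom called 0 members in both. The fitted values ran from -0.64 for Ccr7 to 0.48 for Xcr1 with anti-IL-36R and from -0.18 to 0.58 with anti-IL-12p40. With DSS PBS replicate 2 left out, Ccr7 passed with anti-IL-36R at -0.88 (adjusted p = 0.0466). The antibodies set against each other gave 0 of 9 members, where 0% of all tested genes passed by edgeR. An unadjusted p under 0.05 was found for 1 member, beside 547 of all 15731 tested genes, and DESeq2 and limma-voom called 0 members.

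Ccr7 ranged from 3.02 through a median of 5.79 to 7.97 CPM with anti-IL-36R and from 6.46 through 7.73 to 11.5 CPM with anti-IL-12p40. Flt3 ranged from 2.71 through 6.12 to 9.89 CPM and from 5.43 through 8.02 to 9.8 CPM with the antibodies in the same order. Cd209a spread more with anti-IL-12p40, from 0.185 through 0.746 to 4.46 CPM, than with anti-IL-36R, from 1.07 through 1.38 to 2.59 CPM, though this difference in spread was not tested.

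Compared with water colon, 3 of 9 members were higher with DSS and anti-IL-36R, where 6.87% of all tested genes were higher: Flt3 at 1.23 ± 0.29 (adjusted p = 0.00836), Ccr7 at 1.98 ± 0.449 (adjusted p = 0.00646) and Irf8 at 0.63 ± 0.115 (adjusted p = 0.00142). With DSS and anti-IL-12p40, 4 of 9 were higher, where 10.8% of all were: Flt3 at 1.60 ± 0.298 (adjusted p = 0.000587), Ccr7 at 2.51 ± 0.462 (adjusted p = 0.000525), Irf8 at 0.84 ± 0.118 (adjusted p = 5.83e-05) and Batf3 at 1.15 ± 0.351 (adjusted p = 0.0252), the last not passing without water replicate 2, 3 or 5 or antibody replicate 5 (0.96 to 1.11). Each of these comparisons uses the 5 water libraries that DSS with PBS was set against.

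**Figure D4:**
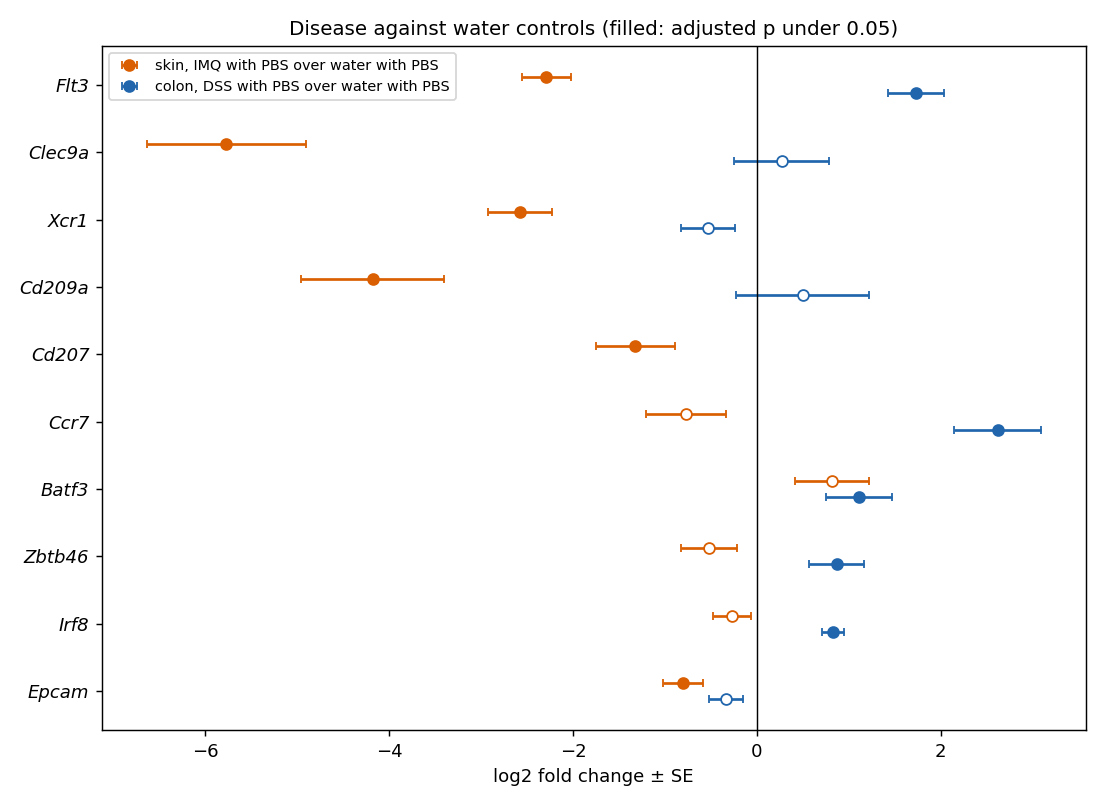
Log2 fold change on the x axis for each of the 10 genes, for IMQ with PBS over water with PBS in skin and for DSS with PBS over water with PBS in colon; points are fitted values and bars their SE. Flt3 is at -2.29 in skin and 1.73 in colon; Cd207 has no colon value.

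The difference between the tissues was tested in the joint fit as the disease change in skin minus that in colon. It was lower in skin for 7 of 10 members, where 13.4% of all tested genes were lower. Flt3 differed by -3.97 ± 0.418 (adjusted p = 1.64e-08) and Clec9a by -6.01 ± 1.07 (adjusted p = 7.14e-05). Cd209a differed by -4.64 ± 1.14 (adjusted p = 0.00264), Ccr7 by -3.35 ± 0.651 (adjusted p = 0.000223) and Xcr1 by -2.01 ± 0.47 (adjusted p = 0.00169). Irf8 differed by -1.06 ± 0.232 (adjusted p = 0.000827) and Zbtb46 by -1.34 ± 0.428 (adjusted p = 0.0197), and the Zbtb46 call was lost without DSS PBS replicates 2, 5 and 6 (-0.91), without water skin replicate 3 (-1.05) and by limma-voom (-0.88, adjusted p = 0.0704). Tissue, inducing agent and count table cannot be told apart in this contrast.

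The antibody changes were compared between tissues in the same way. For anti-IL-36R over PBS, skin exceeded colon for 2 of 10 members, where 4.12% of all tested genes were higher: Flt3 by 1.51 ± 0.352 (adjusted p = 0.00793) and Clec9a by 3.44 ± 1.04 (adjusted p = 0.0422). For anti-IL-12p40 over PBS, Flt3 was the 1 member of 10, where 1.45% of all were higher, by 1.27 ± 0.356 (adjusted p = 0.0495). Without DSS PBS replicates 2, 5 and 6, Clec9a was at 3.75 (adjusted p = 0.0514) for anti-IL-36R and Flt3 at 1.30 (adjusted p = 0.1) for anti-IL-12p40. These differences were not rerun with part of the IMQ libraries. In the skin fit against IMQ PBS replicates 1 to 3 alone, Flt3 did not pass by edgeR with anti-IL-36R (0.75, adjusted p = 0.168) or anti-IL-12p40 (0.87, adjusted p = 0.0927). Nor did Clec9a with anti-IL-36R (3.85, adjusted p = 0.122), which had 2 counts in all of IMQ skin with PBS.

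Between the water controls, Cd207 stood at 11.6 to 26.5 CPM in water skin and 0.0624 to 0.617 CPM in water colon; it passed the count filter in skin alone, where it is high, so no test is given for this difference. Of the other 9 members, skin exceeded colon for 4, where 32.7% of all tested genes were higher, and was lower for 2, where 33.3% were lower. Cd209a differed by 4.51 ± 0.885 (adjusted p = 2.23e-05), Flt3 by 1.82 ± 0.319 (adjusted p = 3.37e-06), Xcr1 by 1.09 ± 0.352 (adjusted p = 0.00619) and Batf3 by 0.96 ± 0.426 (adjusted p = 0.0453). Epcam, which the colon epithelium carries throughout, differed by -2.84 ± 0.265 (adjusted p = 1.16e-12) and Irf8 by -1.18 ± 0.191 (adjusted p = 7.5e-07). Without water skin replicate 3 the Xcr1 value was 0.66 (adjusted p = 0.144), and Batf3 did not pass without water skin replicate 1 or 3 or water colon replicate 2, 3 or 5 (0.72 to 0.93).

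Other genes of these cells and of the pathways the members belong to were counted in 7 lists. In skin under IMQ with PBS, where 17.4% of all tested genes were lower and 15.5% higher, 6 of 11 other cDC1 genes were lower and 0 higher (list median -0.73, beside -0.03 for all tested genes). Tlr11, a sensor of microbial profilin, was at -3.46 ± 0.441 (adjusted p = 5.98e-05), and Itgae, the integrin CD103 chain that cDC1 share with tissue T cells, at -1.79 ± 0.265 (adjusted p = 0.000175). Of 11 other cDC2 genes 4 were lower and 2 higher (list median -0.44): Mgl2, a galactose-binding lectin of dermal cDC2, was at -2.64 ± 0.417 (adjusted p = 0.000259), and Cd300a, an inhibitory receptor of many myeloid cells, at 1.03 ± 0.227 (adjusted p = 0.00219).

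Of 10 MHC class II genes, 7 were lower and 1 higher in IMQ skin with PBS (list median -1.05), with summed levels of 580 to 1180 CPM against 1120 to 2520 CPM in water. H2-Oa, a part of the peptide-loading modulator H2-O, was at -2.39 ± 0.387 (adjusted p = 0.000293), Cd74, the invariant chain, at -1.11 ± 0.311 (adjusted p = 0.0103), and Ctss, the protease cathepsin S, at 0.87 ± 0.229 (adjusted p = 0.00702). Of 15 maturation and migration genes 3 were lower and 3 higher (list median -0.24), among them Cd83 at -1.51 ± 0.298 (adjusted p = 0.00111) and the chemokine gene Ccl22 at -1.53 ± 0.343 (adjusted p = 0.00258). Of 9 plasmacytoid genes 2 were lower and 1 higher; the shares of both lists lie near those of all tested genes. Among the plasmacytoid genes was the receptor gene Siglech, at -1.61 ± 0.383 (adjusted p = 0.00363).

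Among ligands and growth factors, 3 of 10 were lower and 1 higher in IMQ skin with PBS (list median -0.28). Flt3l, the ligand of FLT3, was at -0.92 ± 0.259 (adjusted p = 0.0103), Il34, the cytokine that maintains Langerhans cells through CSF1R, at -0.48 ± 0.176 (adjusted p = 0.0384) and Tgfb1 at 0.73 ± 0.131 (adjusted p = 0.000577). Of 9 Langerhans cell and epidermal niche genes 3 were lower and 1 higher (list median -0.12), with Ly75, the uptake receptor DEC-205, at -0.90 ± 0.328 (adjusted p = 0.0384).

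These counts in skin depended on water replicate 3. Without it, an alternative added after the data were seen, 10% of all tested genes were lower and 8.57% higher, and 1 of 10 MHC class II genes was lower (list median -0.61), as were 3 of 11 other cDC1 genes, 2 of 11 other cDC2 genes, 2 of 15 maturation and migration genes, 1 of 9 plasmacytoid genes, 1 of 9 Langerhans and niche genes and 0 of 10 ligands and growth factors. Cd74 (-0.62, adjusted p = 0.183), Flt3l (-0.40, adjusted p = 0.267), Il34 (-0.43, adjusted p = 0.141), Ccl22 (-1.03, adjusted p = 0.0536) and Ly75 (-0.75, adjusted p = 0.166) did not pass then. Tlr11 (-2.75), Itgae (-1.50), Mgl2 (-1.59), H2-Oa (-2.32), Cd83 (-1.27) and Siglech (-1.62) passed as lower, and Cd300a (1.20), Ctss (1.29) and Tgfb1 (0.83) as higher.

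With the antibodies, 3.21% of all tested genes were higher for anti-IL-36R and 5.26% for anti-IL-12p40 in skin. Itgax, the integrin CD11c chain, was higher with anti-IL-36R (0.90 ± 0.224, adjusted p = 0.0246) and with anti-IL-12p40 (0.88 ± 0.223, adjusted p = 0.0183), as were Itgae (0.84 and 1.02), Ly75 (1.27 and 0.90) and Ccl22 (1.26 and 1.21). With anti-IL-36R, 2 of 11 other cDC1 genes, 1 of 11 other cDC2 genes, 3 of 15 maturation and migration genes and 1 of 9 Langerhans and niche genes were higher. With anti-IL-12p40 the counts of higher genes were 2, 1, 2 and 1 for the same lists, and Ccl17, a chemokine of maturing dendritic cells, was at 2.42 ± 0.545 (adjusted p = 0.00897). Among the MHC class II genes the smallest p belonged to H2-DMb2 with anti-IL-36R (1.27 ± 0.379, adjusted p = 0.0595) and to H2-Oa with anti-IL-12p40 (1.15 ± 0.359, adjusted p = 0.057). Against IMQ PBS replicates 1 to 3 alone, none of Itgax, Itgae, Ly75, Ccl22 and Ccl17 passed with either antibody, and against replicates 4 to 6 alone the 1 call was Ly75 with anti-IL-36R (1.69, adjusted p = 0.0385).

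In colon under DSS with PBS, where 17.6% of all tested genes were higher and 14.6% lower, all 10 MHC class II genes were higher (list median 2.16, beside -0.03 for all tested genes). Their summed level was 524 to 5470 CPM with DSS and PBS and 671 to 992 CPM in water, with DSS replicate 2 below every water library. Among them was Ciita, their master regulator, at 2.42 ± 0.47 (adjusted p = 0.000402). Of 14 maturation and migration genes 9 were higher and 1 lower (list median 2.07), with Cd80, a costimulatory ligand, at 3.21 ± 0.352 (adjusted p = 9.94e-07), Fscn1, an actin-bundling protein of mature dendritic cells, at 2.12 ± 0.329 (adjusted p = 3.42e-05) and Ccl22 at 2.55 ± 0.407 (adjusted p = 4.68e-05). Of 11 other cDC2 genes 6 were higher and 1 lower (list median 1.60), with Irf4, a transcription factor that cDC2 and lymphocytes use, at 2.98 ± 0.478 (adjusted p = 4.95e-05). Of 11 other cDC1 genes 4 were higher and 0 lower (list median 0.37), with Wdfy4, which cross-presentation needs, at 1.88 ± 0.326 (adjusted p = 0.000116). Among 9 ligands and growth factors 5 were higher, with Ccl19, a ligand of CCR7, at 2.76 ± 0.497 (adjusted p = 0.000176). Without DSS PBS replicates 2, 5 and 6, when 10.4% of all tested genes were higher, the higher genes were 10 of 10 MHC class II, 10 of 14 maturation and migration, 5 of 11 other cDC2, 3 of 11 other cDC1 and 3 of 9 ligand and growth factor genes, and without replicates 5 and 6 alone, when 11.9% were higher, they were 8, 8, 5, 1 and 2 for the same lists. Ciita, Cd80, Fscn1, Ccl22, Irf4, Wdfy4 and Ccl19 passed in both cases, with Cd80 at 2.53 and Fscn1 at 1.42 without the 3 libraries.

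**Figure D5:**
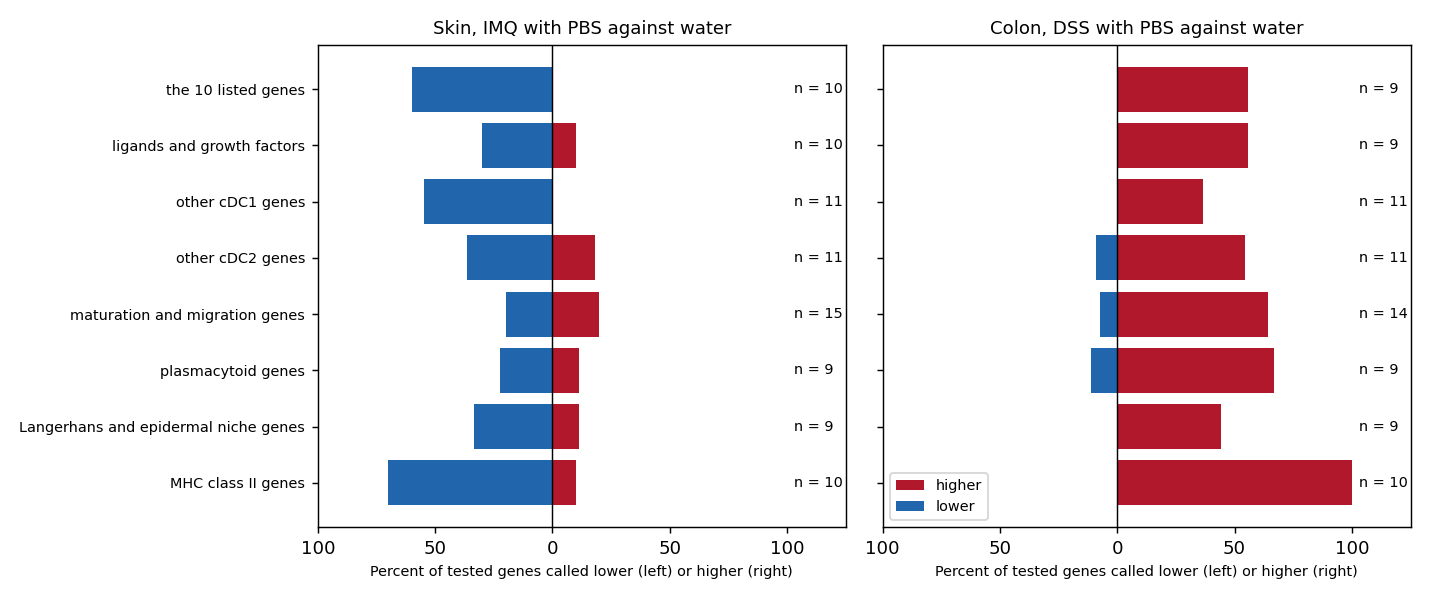
Percent of the tested genes of each list that passed as lower (blue, to the left of 0) or higher (red, to the right), with the number tested as n, for the 10 members and 7 lists, in IMQ with PBS over water in skin and in DSS with PBS over water in colon. In skin 7 of 10 MHC class II genes are lower (1 of 10 without water replicate 3), and in colon 10 of 10 are higher.

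The genes whose pattern across libraries was nearest to each member were taken as the 3 with the smallest root mean square difference of centred log2 CPM, over 23 skin or 26 colon libraries; libraries of a group share their treatment, and genes at similar depth share their noise. In skin the nearest to Flt3 was Ctnnd2 (0.265), to Clec9a Tlr11 (0.448), to Xcr1 Fbxo32 and Mgl2 (0.423 each), to Cd207 Arhgef26 (0.457) and to Epcam Ano9 (0.151). In colon the nearest to Clec9a was again Tlr11 (0.503), followed by Tlr12 (0.562) and Apol7c (0.584), to Flt3 Rasgrp3 (0.206), to Ccr7 Il21r (0.279) and to Epcam Cldn7 (0.1). The nearest to Cd209a lay farther off, Il4i1 in skin at 1.35 and Kcng4 in colon at 0.907. These differences are not scaled to the spread of a gene, and the SD of Cd209a itself was 2.01 in skin and 1.16 in colon. On deviations from group means, Ctnnd2 for Flt3, Tlr11 for Clec9a, Ano9 for Epcam and Il4i1 for Cd209a were again among the nearest 3 in skin, and Fbxo32 and Mgl2 for Xcr1 and Arhgef26 for Cd207 were not. In colon Rasgrp3 for Flt3, Il21r for Ccr7, Cldn7 for Epcam and Kcng4 for Cd209a were again among them, and Tlr11, Tlr12 and Apol7c for Clec9a were not.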

How the data were processed

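Messenger RNA was isolated and turned into strand-specific libraries, per the labels. The authors estimated expected counts per gene with RSEM against mm10, per the submitters' processing notes, and deposited 1 table per tissue; versions are not given in the sources used here. Expected counts divide reads that match several genes, and 23.1% of the skin and 23.5% of the colon values above 0 were not whole (tolerance 1e-6). Of 24475 gene IDs, 24375 matched a symbol, and all 49 columns matched a labelled sample.

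After rounding, the robust quasi-likelihood F test of edgeR 4.0.16 (R 4.3.3) was applied with filterByExpr and TMM scaling. Each tissue had 1 fit of its 4 groups, and both tissues were put in a joint fit of 16818 genes for tissue differences. A gene passed at a Benjamini-Hochberg adjusted p under 0.05 over all tested genes; SEs were derived from the F statistic, dividing the size of the log2 fold change by its square root. The common biological coefficient of variation was 0.201 in skin, 0.29 in colon and 0.26 jointly. CPM were counts over the TMM-adjusted total (factors 0.833 to 1.08 in skin, 0.91 to 1.09 in colon). A 0 was given a floor of 3 counts, and Clec9a count ratios exact Clopper-Pearson 95% intervals (scipy 1.17.1); both cover counting error only. In simulated counts the fit recovered 100% of genes changed by 2 on the log2 scale in both tissues, and of those changed by 1, 87% in skin and 54% in colon. Every gene there had the common coefficient of variation, and changes were placed only in genes with a mean above 1 CPM. The recovery of scarcer or more variable genes, such as Clec9a and Cd209a in skin, was not tested.

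The members and gene lists were chosen with earlier results of these data known. All 10 members are named. Of each list up to 4 genes with the smallest p in a comparison could be named, and part of these are printed. Nearest genes were the 3 with the smallest root mean square difference of log2 CPM (prior count 2). They were sought among tested genes of similar SD, with members, predicted genes and pseudogenes left out. Promoter windows were 250 bases before RefSeq starts. Alternatives were DESeq2 1.42.0 size factors, no filter, the DESeq2 Wald test, limma 3.58.1 voom with sample weights, the compared groups alone, each library left out in turn and IMQ PBS replicates 1 to 3 or 4 to 6 alone; a fit without the robust option and leaving out DSS PBS libraries 5 and 6, or 2, 5 and 6, were added after the data were seen, as were leaving out each water library in the joint fit and, for the gene lists, the same DSS PBS libraries, skin water replicate 3 and each set of IMQ PBS replicates. No labels pair samples across groups. Plots used matplotlib 3.10.9.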

Additional observations from a re-analysis of the deposited data

Results flagged for a closer look

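Within groups of 4 to 10 libraries, the highest or lowest library was set against its group by Dixon's criterion for 70 combinations of gene and group, and 8 exceeded it; chance alone exceeds it in about 1 in 20 groups. In skin under IMQ with PBS, these were Flt3 in replicate 2 (2.91 CPM, next 1.9 CPM), Xcr1 in replicate 1 (0.407 CPM, next 0.841 CPM) and Epcam in replicate 1 (156 CPM, next 91.7 CPM). With anti-IL-36R in skin, Cd207 was 22.6 CPM in replicate 4, next 13.5 CPM. In colon, Cd209a was 4.46 CPM in replicate 7 of DSS with anti-IL-12p40, next 1.75 CPM, and 2.59 CPM in replicate 8 of DSS with anti-IL-36R, next 1.79 CPM. Cd207 was 0.239 CPM in replicate 4 of DSS with PBS, which is 4 counts, and Epcam was 1430 CPM in replicate 5 of water with PBS, next 1250 CPM.

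The change under disease differed between skin and colon by the joint edgeR test for Flt3 (-3.97, adjusted p = 1.64e-08), Clec9a (-6.01, adjusted p = 7.14e-05), Xcr1 (-2.01, adjusted p = 0.00169), Cd209a (-4.64, adjusted p = 0.00264), Ccr7 (-3.35, adjusted p = 0.000223), Zbtb46 (-1.34, adjusted p = 0.0197) and Irf8 (-1.06, adjusted p = 0.000827), as log2 differences of skin minus colon. The change with anti-IL-36R differed for Flt3 (1.51, adjusted p = 0.00793) and Clec9a (3.44, adjusted p = 0.0422), and that with anti-IL-12p40 for Flt3 (1.27, adjusted p = 0.0495). Without DSS PBS replicates 2, 5 and 6, the calls of Zbtb46 for disease, Clec9a for anti-IL-36R and Flt3 for anti-IL-12p40 were lost. That of Flt3 for anti-IL-12p40 was also lost with no filter on low counts.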

How the results depend on the processing

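The falls of Flt3, Clec9a, Xcr1 and Cd209a in IMQ skin and the rises of Flt3, Ccr7 and Irf8 in DSS colon passed under each alternative run; the losses of other members' calls stand beside those results. No paired analysis was possible because no label pairs libraries across groups. In the fits of only the 2 groups compared, Clec9a did not pass the count filter for IMQ with PBS over water or for the antibodies over PBS and against each other in skin, so these fits give it no value. By DESeq2, the genes called became 1112 for anti-IL-36R over PBS in skin (628 by edgeR), 22 for the antibodies against each other (7), 1305 for anti-IL-12p40 over water skin (729), 1558 and 355 for anti-IL-36R and anti-IL-12p40 over PBS in colon (1024 and 157), and 489 for the difference of anti-IL-12p40 between tissues (309). By limma-voom the counts were 2750 and 2677 for anti-IL-36R and anti-IL-12p40 over PBS in skin (628 and 1338), 453 and 0 in colon, 3972 and 5028 for these over water colon (1553 and 2706) and 162 for the difference of anti-IL-12p40 between tissues, with 2 members (1); Ccr7 with anti-IL-12p40 in skin was then at -0.09, Cd209a in DSS colon at -0.08 and Cd209a with anti-IL-12p40 in skin passed at 3.29. With only the 2 groups compared they were 4, 1174 (2003) and 470 in skin for the antibodies against each other and each over water, and 2888 (5065, with 3 members of 5), 403 and 0 in colon for DSS with PBS over water and each antibody over PBS, where fewer libraries entered. With no filter, 0 members passed for the anti-IL-12p40 difference between tissues. With IMQ PBS replicates 1 to 3 the antibodies over PBS gave 106 and 429 genes and 0 members each, with Batf3 at 0.12 for anti-IL-36R and Cd207 at -0.05 and Ccr7 at -0.02 for anti-IL-12p40; with replicates 4 to 6, 50 and 193 genes and, for anti-IL-12p40, 2 members. Without DSS PBS replicates 5 and 6, DSS colon gave 2971 genes and 3 members, and the antibodies over PBS 115 and 0 genes; without 2, 5 and 6, 2266 genes and 3 members, and 1 and 0 genes. The tissue differences then gave 2432 genes for disease (3753), 80 with 1 member (863, 2) for anti-IL-36R and 44 with 0 members for anti-IL-12p40. Leaving out single libraries, the genes called ran from 2882 to 4992 for IMQ over water (5046), 298 to 1186 and 737 to 1799 for the antibodies over PBS in skin, 698 to 2591 and 118 to 1117 over water, 3 to 8 against each other, 436 to 1768 and 33 to 402 for the antibodies over PBS in colon, 975 to 1593 for anti-IL-36R over water colon and 2480 to 3919 for the disease difference between tissues. Members called ran from 1 to 3 and 2 to 4 for the antibodies over PBS in skin, 2 to 4 and 0 to 4 over water, 3 to 5 for DSS over water and 0 to 1 for anti-IL-36R over PBS in colon. Irf8 in IMQ skin ran from -0.45 to 0.04, Batf3 with anti-IL-36R from -0.22 to 0.04, Ccr7 with anti-IL-12p40 from -0.12 to 0.24 and Cd209a in DSS colon from -0.04 to 0.85. Except where fewer libraries entered, the cause was not tested. Values of members that did not pass in the remaining comparisons were 84, with 1370 alternatives, of which 87 changed sign and 11 passed. When nearest genes were sought on deviations from group means, 8 of 30 in skin and 9 of 27 in colon were shared. Depth limits Cd207 in colon, with 0 to 10 counts per library, and Clec9a in IMQ skin with PBS, with 2 counts in all.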

Other observations

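In colon under DSS, several genes of the lists that are not members stood lower with anti-IL-36R than with PBS, although no member passed in that comparison. Of all tested genes 5.38% were lower. Of 11 other cDC2 genes, 3 were lower, with the chemokine receptor gene Ccr2 at -1.22 ± 0.335 (adjusted p = 0.0273), Sirpa, an inhibitory receptor of myeloid cells, at -0.94 ± 0.284 (adjusted p = 0.0468) and Irf4 at -1.25 ± 0.381 (adjusted p = 0.0488). Of 11 other cDC1 genes, 2 were lower, Nfil3 at -1.38 ± 0.287 (adjusted p = 0.004) and Id2 at -0.55 ± 0.167 (adjusted p = 0.0498), and of 14 maturation and migration genes, 2, the costimulatory ligands Cd80 at -1.73 ± 0.274 (adjusted p = 0.000439) and Cd86 at -1.17 ± 0.306 (adjusted p = 0.0208). All 5 neutrophil markers were lower in the same comparison, with sums of 26.6 to 106 CPM with anti-IL-36R and 101 to 1510 CPM with PBS. Ccr2 is also among the macrophage and monocyte markers, whose sums were 371 to 815 CPM with anti-IL-36R and 466 to 1370 CPM with PBS. The part of these cells in the lower values was not tested. Without DSS PBS replicates 5 and 6, Cd80 was the 1 of these 7 genes to pass (-1.08, adjusted p = 0.0185). Only 1 gene of all tested passed in this comparison when DSS PBS replicates 2, 5 and 6 were left out.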
